A study of Mus musculus with 6 samples.

Results

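RNA levels in Phc1-KO mouse embryonic stem cells were compared with those in the wild-type cells they came from, across every gene in the tables. The comparison used 4 of the 6 libraries of the series, which are 2 of ESC and 2 of Phc1-KO. The ESC group is the wild-type J1 line. The Phc1-KO group is described as derived from J1 ESC with the genotype Phc1-/-, and the libraries of each group are called biological replicates. Both groups share the culture described for ESC, with LIF and fetal bovine serum on fibroblast feeders (MEF) inactivated with mitomycin-C, and feeders were removed before use. The remaining 2 libraries, of neural progenitor cells (NPC) differentiated from J1 ESC, were not compared. They entered the fit to estimate the spread, and also the filter on low counts and the scaling of libraries. With the 4 libraries alone, 16698 genes were tested instead of 17489. The labels do not state which part of Phc1 was deleted or whether the knock-out is a single clone. The cell type entry of the Phc1-KO libraries reads NPC, while their titles and the study design call them stem cells.

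Polycomb group proteins keep developmental genes silent in stem cells. Canonical Polycomb repressive complex 1 (PRC1) joins a RING E3 ligase for histone H2A to a PCGF protein, a CBX protein that reads histone H3 methylated by Polycomb repressive complex 2 (PRC2), and a Polyhomeotic protein. Phc1 is a Polyhomeotic protein, and these proteins polymerise through a SAM domain and help to cluster Polycomb-bound chromatin.

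Reads counted in genes numbered 15766448 and 16018670 in ESC 1 and 2, and 19224273 and 21893821 in Phc1-KO 1 and 2. Levels are given as CPM, counts relative to the TMM-scaled library size, and libraries are named in the order ESC 1, ESC 2, Phc1-KO 1, Phc1-KO 2. The summed level of 5 stem cell markers (Pou5f1, Nanog, Sox2, Zfp42, Esrrb) was 1598 and 1589 CPM in ESC, 1456 and 1736 CPM in Phc1-KO, and 109 and 82.1 CPM in NPC. The sum of 5 neural progenitor markers was 172 and 146 CPM in Phc1-KO, 163 and 173 CPM in ESC and at least 2459 CPM in NPC. Outside NPC most of this sum was Nes, at 155.9, 165.3, 147.7 and 122.2 CPM. Pax6 was at 21.5 and 20.8 CPM in Phc1-KO, near its 21.0 and 16.9 CPM in NPC. Olig2, Fabp7, Nes and Sparcl1 were far below their NPC levels in both Phc1-KO libraries. By these markers and those of stem cells, the NPC entry of the labels did not match the Phc1-KO libraries. Pearson correlations of log CPM across genes were 0.96 between each Phc1-KO and each ESC library. The ESC libraries stood apart from the others in how alike they were. Beyond counting error their values differed by 1.98%, against 18.1% for the Phc1-KO pair and 27.5% for the NPC pair, and their chi-square per degree of freedom was 1.44 against 48.8 and 47.0. Results are therefore also given with the ESC libraries counted as 1 sample, and p-values measure only the spread between these libraries.

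Phc1, on chromosome 6 (mm9, 122267749 to 122290579, minus strand), was read at 459.7, 460.5, 326.3 and 267.5 CPM. Both libraries labelled Phc1-KO were below both ESC libraries, and reads over the gene were still abundant in them. The log2 fold change, Phc1-KO against ESC, was -0.63 (SE 0.15, 95% interval -0.98 to -0.28, adjusted p = 0.0412 by edgeR's quasi-likelihood test). The adjusted p was 0.316 without ESC 1, 0.304 without ESC 2, 0.135 without Phc1-KO 2 and 0.295 with the ESC libraries counted as 1. A count over the whole gene does not show whether the deleted part was transcribed.

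Of 37620 genes in the tables, 17489 passed the filter on low counts and were tested. In Phc1-KO, 858 genes (4.91%) were higher and 1006 (5.75%) were lower at an edgeR adjusted p under 0.05, 1864 genes (10.7%) in all. Both Phc1-KO libraries lay on the same side of both ESC libraries for all 1864, and for 11672 of the 17489 genes tested. Among the higher genes 508 rose at least 2-fold, 218 at least 4-fold and 75 at least 8-fold. Among the lower genes the numbers were 703, 261 and 110. The median size of change was 1.18 on the log2 scale in the higher genes and 1.37 in the lower genes. Protein-coding genes made up 771 of the higher and 920 of the lower genes. A mean under 0.5 CPM in ESC was found for 110 of the higher genes, and a mean under 0.5 CPM in Phc1-KO for 172 of the lower genes. With the ESC libraries counted as 1, 62 genes were higher and 83 lower. Without Phc1-KO 2 the counts were 81 and 57, and scaling by total counts gave 683 higher and 1223 lower. Every one of the 1864 kept its direction under each alternative in which it had a value. As the groups did not overlap for any of them, leaving out or pooling a library could hardly reverse a direction.

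**Figure D1:**
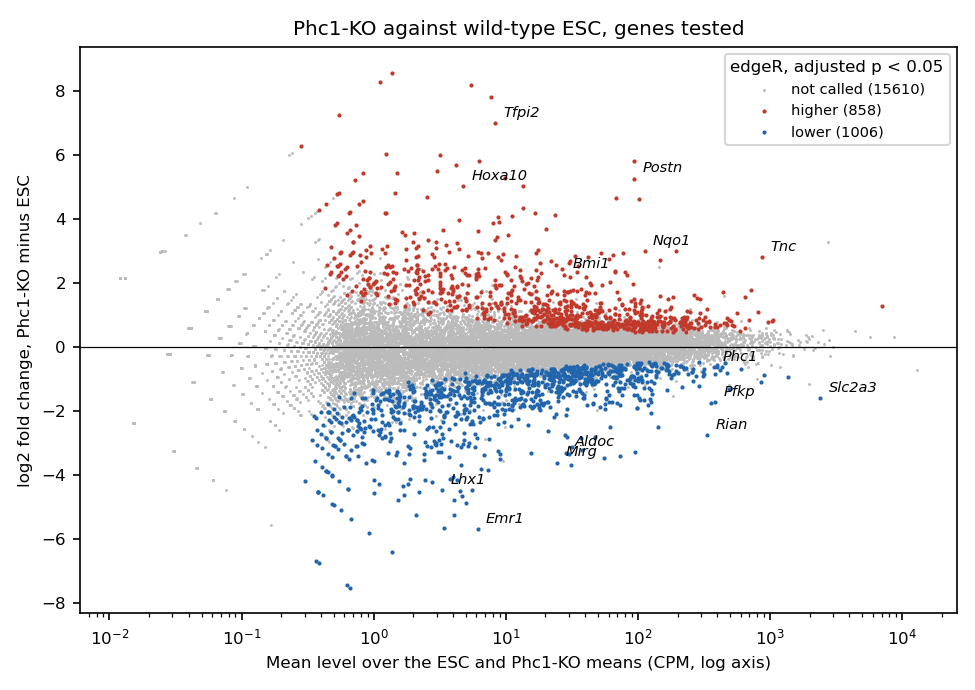
Log2 fold change of Phc1-KO against ESC (vertical axis) over the mean level of the groups in CPM (horizontal log axis), with 1 point per gene tested; genes without a read in these 4 libraries are not drawn. Red points are the 858 higher genes, blue points the 1006 lower genes and grey points the genes not called.

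Tfpi2, which encodes an inhibitor of serine proteases, had the largest increase among named genes with a mean of at least 4 CPM in the higher group. It was at 0.123 and 0.122 CPM in ESC and at 15.8 and 17.0 CPM in Phc1-KO (log2 fold change 6.98, SE 0.34, adjusted p = 0.00111). The matrix metalloproteinase genes Mmp3 and Mmp10, neighbours on chromosome 9, rose together. Mmp3 was read at 7.52, 8.27, 180.9 and 211.5 CPM, and Mmp10 at 0.864, 0.730, 21.996 and 30.5 CPM. Postn, which encodes the matrix protein periostin, went from 4.63 and 4.93 CPM to 167.8 and 198.3 CPM. Postn is also 1 of 6 feeder fibroblast markers, which summed to 376, 367, 772 and 629 CPM, and to 6500 and 10545 CPM in NPC. The 772 and 629 CPM of Phc1-KO include the 167.8 and 198.3 CPM of Postn itself. The part of feeder RNA in these increases was not tested. The eotaxin gene Ccl11 was at 0.247 and 0.730 CPM in ESC and at 23.6 and 14.7 CPM in Phc1-KO. Dkk2, which encodes a secreted modulator of Wnt signalling, rose by 4.08 on the log2 scale. The collagen-receptor integrin gene Itga2 rose by 4.19 and the cysteine protease inhibitor gene Ctla2a by 4.35. Hoxa10 was read at 0.308, 0.243, 10.998 and 7.45 CPM (log2 fold change 5.03, SE 0.51). Hsd3b6, a steroid dehydrogenase gene of a family of close copies, had 3 reads over both ESC libraries, which gives a ratio of 66.8 with a 95% counting interval of 22.6 to 326. The same rule for the largest increases also gave Olr1 (a scavenger receptor for oxidised lipoprotein), Gpr149 and Lingo2. It also gave 5_8S_rRNA, a copy of a ribosomal RNA gene that is uncertain because its reads can come from many copies. That gene was at 245 CPM in Phc1-KO 1 and 20.03 CPM in Phc1-KO 2. Of these 15 genes, 13 passed without ESC 1, 9 without ESC 2, 15 without Phc1-KO 1, 9 without Phc1-KO 2 and 13 with the ESC libraries counted as 1.

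The largest decreases included macrophage, interferon-induced, neural and mesendoderm genes. Emr1, which encodes the macrophage surface protein F4/80, was read at 11.97, 12.04, 0.209 and 0.242 CPM (log2 fold change -5.69, SE 0.35, adjusted p = 0.00189). Aplnr, the apelin receptor gene, went from 6.17 and 7.24 CPM to 0.157 and 0.0968 CPM. Interferon-induced genes in this set were Ifi44, at 8.08, 7.79, 0.157 and 0.242 CPM, and the GTPase gene Iigp1, at 3.64, 4.50, 0.105 and 0.0968 CPM. Trim30a, at 5.18, 5.41, 0.262 and 0.290 CPM, is a further interferon-induced gene. Genes expressed in neurons were Grin1, an NMDA receptor subunit, at 8.33, 8.94, 0.367 and 0.387 CPM, and Calb2, which encodes calretinin, at 9.07, 8.88, 0.314 and 0.387 CPM. Lhx1, a homeobox gene of anterior mesendoderm, was at 6.48, 6.14, 0.314 and 0.242 CPM. Ndufa4l2, a hypoxia-inducible mitochondrial gene, was at 10.9, 10.3, 0.471 and 0.484 CPM. The remaining genes of this set were the chemokine gene Ccl9, the C-type lectin receptor gene Clec4n, the interleukin 1 receptor antagonist gene Il1rn, the serine protease gene Tmprss2, Pkd1l1 and the pseudogene Rpsa-ps10, whose reads can be shared with close copies. Both Phc1-KO libraries were below both ESC libraries in each of the 15, which the rule that picked them required. Without ESC 1 and without ESC 2, 11 passed, without Phc1-KO 1 11, without Phc1-KO 2 6, and with the ESC libraries counted as 1 12.

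**Figure D2:**
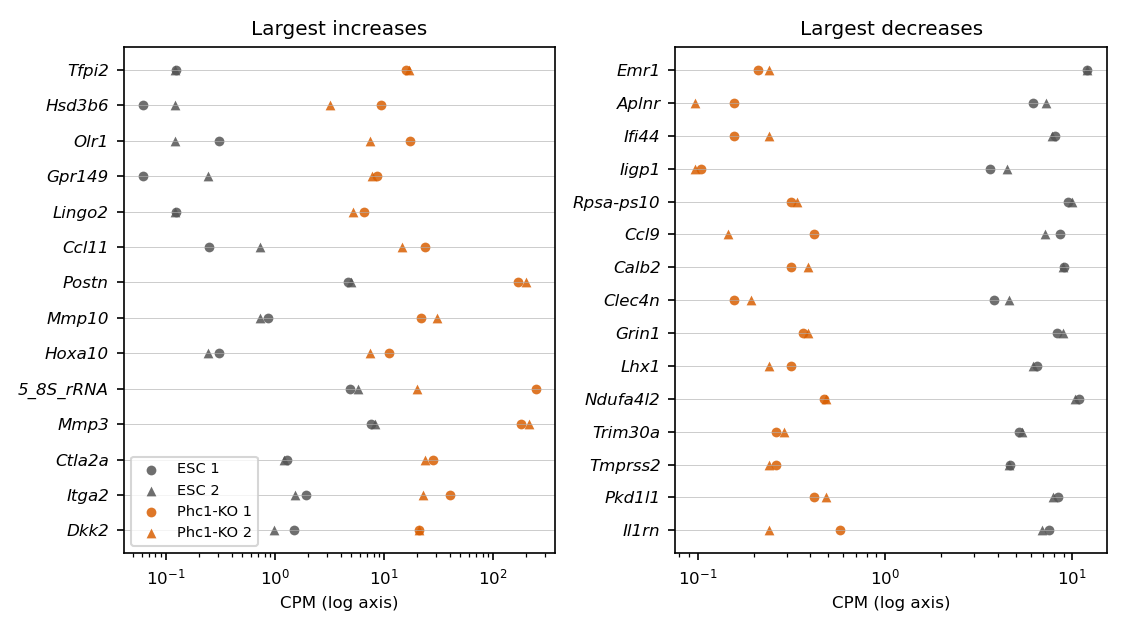
CPM on a log axis of genes with the largest increases (left) and decreases (right), 1 row per gene and 1 symbol per library, with ESC in grey, Phc1-KO in orange, circles for library 1 and triangles for library 2. The rule that picked these genes required groups that do not overlap, and 5_8S_rRNA is the gene on the left whose Phc1-KO libraries lie furthest apart.

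A smaller set passed in all of 5 further fits, which left out each of the 4 libraries in turn or counted the ESC libraries as 1. It held 27 higher and 32 lower genes, picked after their values were known. Among the higher genes, Lrp2 and Cubn encode megalin and cubilin, endocytic receptors that act together in absorptive epithelia and visceral endoderm. Lrp2 was read at 205.7, 204.6, 673.0 and 673.2 CPM and Cubn at 4.93, 5.35, 35.1 and 27.7 CPM. Pdgfra, the receptor gene for platelet-derived growth factor, went from 16.6 and 14.4 CPM to 135.7 and 92.7 CPM. The chemokine gene Ccl2 was at 12.2, 11.9, 88.5 and 96.3 CPM, the interleukin 33 receptor gene Il1rl1 at 22.1, 21.96, 111.4 and 113.6 CPM, and the collagenase gene Mmp13 at 3.58, 3.95, 23.1 and 39.0 CPM. Serpinb2, an inhibitor of plasminogen activators, rose by 4.06 on the log2 scale, Thbs2, which encodes the matrix protein thrombospondin 2, by 2.94, and Pax6, a transcription factor of eye and neural development, by 2.21. Among the lower genes, Arg1, which encodes arginase 1, was read at 12.8, 12.3, 1.26 and 1.16 CPM, and the guanylate-binding protein genes Gbp1 and Gbp2 had log2 fold changes of -3.21 and -2.82. The extracellular matrix gene Frem2 was at 137.8, 130.6, 15.6 and 9.92 CPM. The lactate dehydrogenase gene Ldhb went from 200.4 and 186.5 CPM to 50.4 and 66.4 CPM, and Pgm2, a phosphoglucomutase gene, from 99.6 and 96.6 CPM to 28.6 and 31.3 CPM.

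Gene lists for pathways, complexes and cell types were described by the members tested and called, beside 4.91% higher and 5.75% lower over all genes, where the median log2 fold change was 0.00. Hypoxia-inducible factor (HIF) is held low in oxygen by prolyl hydroxylases of the Egln family, and when stable it raises genes of glycolysis and of adaptation to low oxygen. Of 16 hypoxia-inducible genes listed and tested, 11 fell and 0 rose, with a median log2 fold change of -1.65. Both Phc1-KO libraries lay below both ESC libraries for all 16, and for 5975 of the 17489 genes tested. The prolyl hydroxylase genes fell, with Egln3 at 64.3, 66.6, 9.64 and 8.66 CPM and Egln1 at 91.4, 93.0, 27.8 and 28.3 CPM. The mitophagy receptor gene Bnip3 was read at 102, 108, 13.2 and 24.4 CPM (log2 fold change -2.48, SE 0.28, adjusted p = 0.00597). Ddit4, which encodes an inhibitor of mTOR complex 1, was at 239, 245, 44.6 and 42.1 CPM (log2 fold change -2.48, SE 0.14, adjusted p = 0.00111). The stress-response gene Ndrg1 had a log2 fold change of -2.75, Ankrd37 of -1.87, the endoplasmic reticulum oxidase gene Ero1l of -1.79 and the adrenomedullin gene Adm of -1.72. Both collagen prolyl hydroxylase subunits fell, P4ha1 by 1.58 and P4ha2 by 0.92, and Bnip3l fell by 1.04. The 5 members that did not pass were Mxi1, Higd1a, Vegfa, Car9 and Pdk1, with log2 fold changes between -0.54 and -0.33. Vegfa, which encodes the angiogenic growth factor, was at 57.3, 53.4, 46.8 and 32.8 CPM. Without ESC 1, ESC 2, Phc1-KO 1 and Phc1-KO 2 in turn, 6, 5, 7 and 4 members passed, and 6 with the ESC libraries counted as 1. Bnip3, Egln1, P4ha1 and Ddit4 passed in all of these fits.

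HIF binds DNA at a core of ACGTG. Promoter sequences, 250 bases before to 50 after the start (RefSeq, GRCm38.p6, not the mm9 build of the counts), were at hand for 13 of the 16 genes and for 11043 of the 17489 genes tested. ACGTG was found on either strand in 9 of the 13, against 25.0% of the 11043. Over all genes called, it was found in 22.7% of the lower and 28.3% of the higher genes with a sequence. Among glycolysis genes with a sequence it was found in 9 of the 16 tested, and in 3 of the 8 that fell. Of the 8 hypoxia-inducible genes that fell and had a sequence, 7 held it, and Car9 and Higd1a held it without passing the test. The 250 bases before the start are given for 3 of the genes that fell, 5′ to 3′ on the gene's strand, with the core and its reverse complement CACGT in capitals, to show where the match lies in each.
Egln3 (chr12:54203875-54204124, minus strand): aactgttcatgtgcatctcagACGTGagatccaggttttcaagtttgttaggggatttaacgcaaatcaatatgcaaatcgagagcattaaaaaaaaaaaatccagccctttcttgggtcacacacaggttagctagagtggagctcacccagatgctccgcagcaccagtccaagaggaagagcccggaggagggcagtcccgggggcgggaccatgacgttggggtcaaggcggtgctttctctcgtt
Bnip3 (chr7:138909507-138909756, minus strand): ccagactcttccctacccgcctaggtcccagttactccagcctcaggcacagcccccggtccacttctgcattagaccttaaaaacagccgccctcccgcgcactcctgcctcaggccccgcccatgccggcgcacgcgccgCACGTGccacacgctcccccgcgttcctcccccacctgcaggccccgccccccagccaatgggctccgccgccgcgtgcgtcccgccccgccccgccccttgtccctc
P4ha1 (chr10:59323046-59323295, plus strand): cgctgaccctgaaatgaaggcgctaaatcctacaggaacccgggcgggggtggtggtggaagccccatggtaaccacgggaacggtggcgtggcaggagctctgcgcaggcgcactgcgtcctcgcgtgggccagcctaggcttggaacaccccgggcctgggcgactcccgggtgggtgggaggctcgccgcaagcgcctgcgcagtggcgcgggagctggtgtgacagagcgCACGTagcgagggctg
The Bnip3 promoter holds a palindromic CACGTG, in which a core on each strand overlaps, and the Egln3 and P4ha1 promoters hold a single core. A match of these letters describes the sequence and was not shown to be bound.

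Glycolysis converts glucose to pyruvate, and several of its genes are HIF targets. Of 18 genes of glucose uptake, glycolysis and lactate export, 9 fell and 0 rose (median log2 fold change -1.10), and summed over the list they gave 12741 and 12671 CPM in the ESC libraries against 6169 and 7938 CPM. Aldoc, an aldolase gene, was read at 52.1, 51.9, 4.14 and 6.43 CPM (log2 fold change -3.29, SE 0.27, adjusted p = 0.00226). Pfkp and Pfkl, which encode subunits of phosphofructokinase, the committing enzyme of the pathway, fell by 1.72 and 1.22 on the log2 scale. Slc2a3, a glucose transporter gene, had the largest drop in CPM of any named gene, from 3611 and 3621 CPM to 1184 and 1229 CPM. The lactate exporter gene Slc16a3 fell by 1.46, Tpi1 by 1.29, Hk1 by 1.12, Pgk1 by 1.10 and Aldoa by 1.09. Enzymes at the end of the pathway did not pass. Ldha was at 1442, 1446, 749 and 1120 CPM and Pkm at 2241, 2186, 1687 and 2680 CPM, where the Phc1-KO libraries lie on either side of ESC. The second glucose transporter gene, Slc2a1, was at 671, 681, 269 and 330 CPM (adjusted p = 0.0599). Without ESC 1, ESC 2, Phc1-KO 1 and Phc1-KO 2, 3, 3, 7 and 3 members passed, and 3 with the ESC libraries counted as 1.

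**Figure D3:**
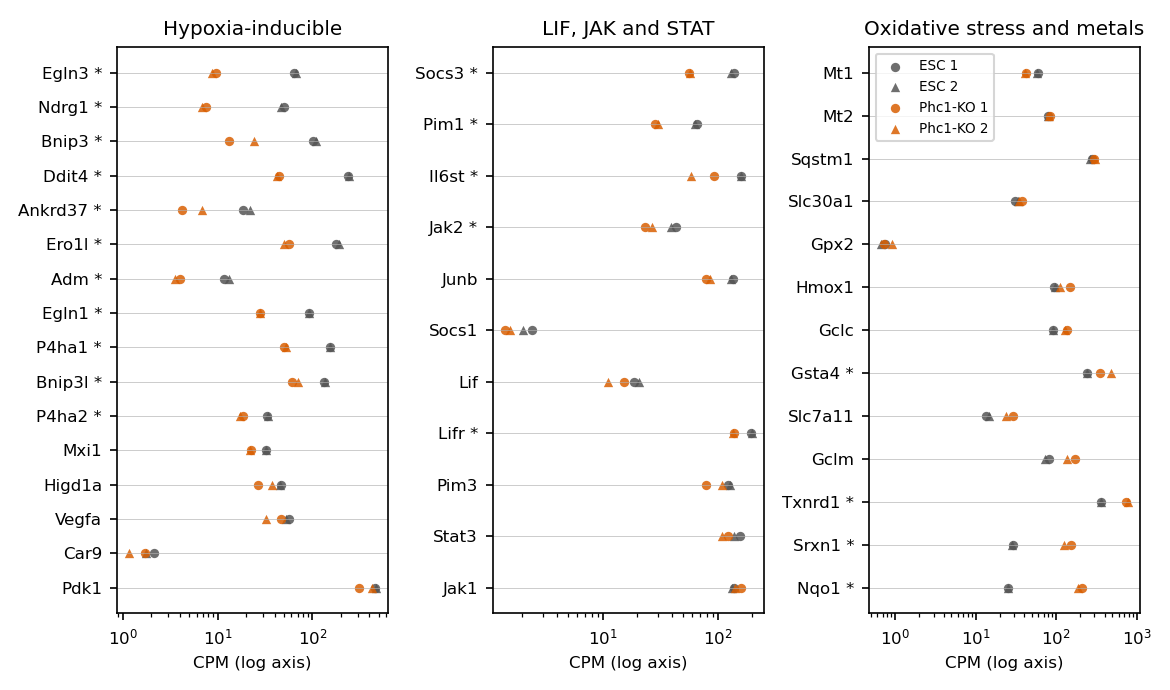
CPM on a log axis of members tested of the hypoxia-inducible, the LIF, JAK and STAT, and the oxidative stress and metal lists, 1 row per gene and 1 symbol per library, with ESC in grey, Phc1-KO in orange and an asterisk on genes that passed the test. All 16 hypoxia-inducible genes lie lower in Phc1-KO, while Nqo1 and Srxn1 lie higher.

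LIF holds mouse stem cells in self-renewal through the receptor pair Lifr and Il6st (gp130), the kinases Jak1 and Jak2, and Stat3. Of 12 genes listed, 6 fell and 0 rose (median log2 fold change -0.63). Both receptor genes fell: Lifr was read at 194, 197, 137 and 135 CPM and Il6st at 160, 160, 92.1 and 58.9 CPM. Jak2 fell by 0.72 on the log2 scale, whereas Jak1 was at 137, 132, 158 and 140 CPM and Stat3 at 155, 138, 123 and 109 CPM, and neither passed. Among targets of the pathway, the feedback inhibitor gene Socs3 was at 137, 131, 56.0 and 57.5 CPM (log2 fold change -1.24, SE 0.16, adjusted p = 0.00891) and the kinase gene Pim1 fell by 1.14. These calls rest on all libraries together: 0 members passed without ESC 1, without ESC 2, without Phc1-KO 2 or with the ESC libraries counted as 1, and 2 passed without Phc1-KO 1.

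Tight junctions, desmosomes and keratin filaments hold epithelial cells together. Of 22 epithelial genes, 13 fell and 0 rose (median log2 fold change -0.91). Keratin genes fell, with Krt19 at 58.9, 56.5, 3.93 and 5.03 CPM (log2 fold change -3.68, SE 0.21, adjusted p = 0.00111), Krt18 at 107, 108, 27.0 and 36.3 CPM and Krt8 at 84.99, 87.4, 25.6 and 31.7 CPM. The claudin genes Cldn3, Cldn4, Cldn6 and Cldn7 fell by 2.02, 1.91, 1.59 and 1.05 on the log2 scale. The desmosomal linker gene Dsp fell by 1.65, the epithelial transcription factor gene Elf3 by 1.79, the membrane protease gene St14 by 1.06, the P-cadherin gene Cdh3 by 0.999, and Esrp1 and Tjp1 by 0.68 each. The 2 genes most used to mark stem cell epithelium did not pass: Cdh1 (E-cadherin) was at 576, 545, 577 and 473 CPM and Epcam at 218, 210, 170 and 186 CPM. Without ESC 1, ESC 2, Phc1-KO 1 and Phc1-KO 2, 2, 1, 7 and 2 members passed, and 2 with the ESC libraries counted as 1, Krt19 in each.

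Interferon-induced genes encode antiviral proteins and are switched on through Stat2 and Irf9. Of 21 tested, 12 fell and 0 rose (median log2 fold change -1.44). Both Phc1-KO libraries lay below both ESC libraries for 20 of them, and for 5975 of the 17489 genes tested. Mx2, an antiviral GTPase gene, was read at 3.64, 3.53, 0.262 and 0.145 CPM. Ifit1, which encodes a sensor of viral RNA ends, was at 9.81, 8.76, 1.05 and 1.11 CPM (log2 fold change -3.09, SE 0.27, adjusted p = 0.00291). The ubiquitin-like modifier gene Isg15 was at 7.89, 8.46, 0.995 and 0.871 CPM, and Usp18, which encodes the protease that removes it, at 4.996, 5.41, 0.576 and 0.677 CPM. Log2 fold changes were -3.61 for Rtp4, -3.02 for Ifit3, -2.99 for Xaf1, -2.41 for Oasl2 and -1.93 for the RNA sensor gene Ifih1. Stat2 itself was at 37.3, 38.6, 16.2 and 13.2 CPM. Of 14 genes of MHC class I presentation, the immunoproteasome gene Psmb8 fell by 1.93 and Tapbp by 1.08, 0 rose, and B2m, at 77.2, 79.9, 57.6 and 64.3 CPM, did not pass. Neither Psmb8 nor Tapbp passed without ESC 1, without ESC 2 or with the ESC libraries counted as 1. Of the interferon list 3, 4, 6 and 1 members passed without ESC 1, ESC 2, Phc1-KO 1 and Phc1-KO 2, and 5 with the ESC libraries counted as 1.

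Macrophage genes moved with the interferon genes. Of 17 macrophage genes tested 12 fell and 0 rose, the median log2 fold change was -2.56, and the list summed to 190, 188, 57.2 and 40.7 CPM. Lyz2, which encodes lysozyme, was at 100, 102, 12.3 and 6.10 CPM, the colony-stimulating factor receptor gene Csf1r at 3.70, 3.47, 1.10 and 0.919 CPM and Ptprc (CD45) at 1.67, 2.43, 0.314 and 0.435 CPM. Cd68, at 10.2, 9.37, 8.64 and 9.29 CPM, did not pass. C1qb had 89 reads over the ESC libraries and 1 over the Phc1-KO libraries, a ratio of 108 with a 95% counting interval of 18.96 to 4329. Without ESC 1, ESC 2, Phc1-KO 1 and Phc1-KO 2, 3, 4, 8 and 1 members passed, and 5 with the ESC libraries counted as 1. The part of macrophage RNA in the interferon result was not tested. In such bulk samples fewer cells of a type and less RNA per cell cannot be told apart.

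The interferon-stimulated response element was searched in the same promoters by its core GAAANNGAA on either strand. It was found in 10 of 18 interferon genes that had a promoter sequence, against 6.84% of the 11043 promoters of genes tested. Over all genes called, the core was found in 9.12% of the lower and 7.13% of the higher genes with a sequence. Of the 9 interferon genes that fell and had a sequence, 7 held it. The 250 bases before the start are given for 3 of these, on the gene's strand, with the core in capitals (its reverse complement where it lies on the other strand), to show how the matches are spaced near the start of Ifit1 and Isg15.
Ifit1 (chr19:34640639-34640888, plus strand): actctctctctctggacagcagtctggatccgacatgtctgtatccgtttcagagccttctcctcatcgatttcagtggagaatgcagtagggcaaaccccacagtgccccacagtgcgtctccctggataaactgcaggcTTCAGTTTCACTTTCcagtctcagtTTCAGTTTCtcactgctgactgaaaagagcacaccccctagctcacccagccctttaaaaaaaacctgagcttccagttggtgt
Isg15 (chr4:156200819-156201068, minus strand): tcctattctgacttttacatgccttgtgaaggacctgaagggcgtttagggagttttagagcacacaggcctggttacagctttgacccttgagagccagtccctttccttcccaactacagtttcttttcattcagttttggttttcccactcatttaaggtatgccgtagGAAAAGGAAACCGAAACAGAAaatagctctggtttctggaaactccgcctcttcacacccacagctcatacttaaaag
Stat2 (chr10:128270248-128270497, plus strand): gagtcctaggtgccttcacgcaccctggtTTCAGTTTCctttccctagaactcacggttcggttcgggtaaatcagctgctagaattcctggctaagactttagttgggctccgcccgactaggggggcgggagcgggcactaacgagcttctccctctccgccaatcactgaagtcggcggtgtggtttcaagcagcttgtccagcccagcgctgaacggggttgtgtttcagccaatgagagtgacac
Ifit1 and Isg15 hold 3 matches each, some of them overlapping and so merged in the capitals, and Stat2 holds 1.

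**Figure D4:**
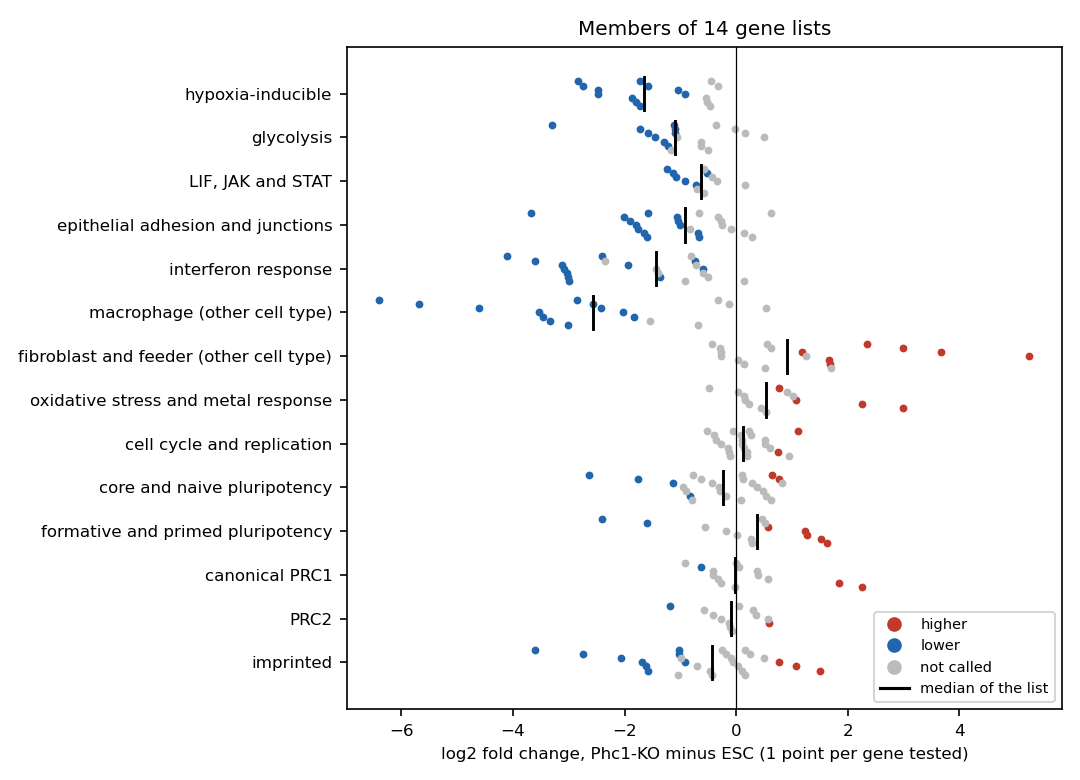
Log2 fold change of Phc1-KO against ESC (horizontal axis) for the members tested of 14 gene lists, 1 point per gene, red for higher, blue for lower and grey for not called; black bars are list medians. The hypoxia-inducible list lies wholly below 0, and the canonical PRC1, PRC2 and cell cycle lists centre near 0.

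Some genes of the response to oxidants rose. The transcription factor Nrf2 raises genes that detoxify quinones and keep thiols reduced. Of 13 genes of oxidative stress and metal response, 4 rose and 0 fell (median log2 fold change 0.53). Nqo1, which encodes a quinone reductase, was read at 25.1, 25.5, 212 and 188 CPM (log2 fold change 2.98, SE 0.23, adjusted p = 0.00189) and passed in each fit that left out a library. Srxn1, which encodes sulfiredoxin, was at 29.2, 28.7, 152 and 124 CPM, the thioredoxin reductase gene Txnrd1 at 361, 364, 741 and 778 CPM and the glutathione transferase gene Gsta4 at 240, 243, 352 and 475 CPM. The glutathione synthesis genes Gclm (81.2, 72.8, 172 and 138 CPM) and Gclc (92.6, 91.7, 135 and 130 CPM) did not pass, nor did Hmox1 (93.1, 96.7, 148 and 110 CPM). The metallothionein genes differed from these, with Mt1 at 59.0, 58.6, 42.7 and 41.6 CPM and Mt2 at 79.8, 80.3, 83.8 and 80.5 CPM, and neither passed. Of the list, 1 member passed without ESC 1, without ESC 2, without Phc1-KO 2 or with the ESC libraries counted as 1, and 2 without Phc1-KO 1. Outside the list, the glutathione transferase gene Gsto1 rose by 2.02 and the peroxiredoxin gene Prdx1 was at 740, 763, 1173 and 1469 CPM.

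Few proliferation genes passed the test. Of 22 genes of the cell cycle and replication, the cyclin genes Ccnd2 and Ccne1 rose by 1.12 and 0.76 on the log2 scale and 0 fell, a share called of 9.09% against 10.7% over all genes. Mki67, a marker of dividing cells, was at 839, 819, 665 and 630 CPM and did not pass. The Cdkn2a locus, which encodes the inhibitors p16 and p19ARF and is a known target of Bmi1, was read at 12.8, 14.6, 49.3 and 40.6 CPM (log2 fold change 1.71, SE 0.31, adjusted p = 0.0197). Among p53 targets Bax, Ccng1 and Aen rose by 0.83, 0.69 and 0.51, and the inhibitor gene Cdkn1b fell by 0.72. The p53 targets Cdkn1a, at 55.8, 53.05, 68.2 and 53.1 CPM, and Mdm2, at 273, 267, 336 and 285 CPM, did not pass. Without Phc1-KO 1, 3 of the 16 genes of the p53 and inhibitor list rose, and 0 were called when any other of the 4 libraries was left out or the ESC libraries were counted as 1. Of the cell cycle list, 2 genes rose without Phc1-KO 1, 1 without Phc1-KO 2 and 0 in the other fits. For Cdkn2a the adjusted p ran from 0.0838 to 0.154.

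Extracellular matrix and mesenchymal genes rose in part. Of 20 mesenchymal genes 4 rose and 1 fell: Twist2 and Prrx1, transcription factor genes of mesenchyme, rose by 2.94 and 2.35 on the log2 scale, Sparc by 0.80 and Fbn1 by 0.64, and Cyr61 fell by 1.29. Of 22 protease inhibitor genes 4 rose and 2 fell. The metalloproteinase inhibitor gene Timp1 was at 43.6, 43.6, 110 and 106 CPM, while Timp3 was at 158, 155, 65.0 and 34.3 CPM. Fn1, which encodes fibronectin, was at 2788, 2686, 1712 and 755 CPM and did not pass. Some feeder markers rose beside these genes, and others did not. Of 18 fibroblast genes 7 rose and 0 fell, and the list summed to 1038, 1012, 2085 and 2014 CPM. Among collagen genes of fibroblasts, Col1a2 was higher in both Phc1-KO libraries, at 197, 187, 335 and 257 CPM, and did not pass (adjusted p = 0.326). Also not past the test were Col1a1 at 90.1, 87.4, 121 and 73.7 CPM and Col3a1 at 73.4, 76.3, 71.9 and 51.8 CPM. Dcn, which encodes the proteoglycan decorin, was at 2.71, 3.16, 45.5 and 29.8 CPM, and S100a4 at 42.9, 45.0, 326 and 368 CPM. The part of feeder RNA in the matrix and protease results was not tested. Of the protease inhibitor list 1, 1, 3 and 3 members rose without ESC 1, ESC 2, Phc1-KO 1 and Phc1-KO 2. Of the mesenchymal list 0 members were called without ESC 1, ESC 2 or Phc1-KO 2 or with the ESC libraries counted as 1. Of the fibroblast list 3, 3, 6 and 3 members rose without ESC 1, ESC 2, Phc1-KO 1 and Phc1-KO 2, and 4 with the ESC libraries counted as 1.

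Among the 14 genes for canonical PRC1 subunits tested, Bmi1 and Cbx8 rose and Phc1 fell. Bmi1, the PCGF subunit also called Pcgf4, was read at 9.75, 9.31, 43.7 and 47.5 CPM (log2 fold change 2.26, SE 0.14, adjusted p = 0.00164) and passed in each fit that left out a library. Its paralogue Pcgf2 was at 20.8, 18.1, 23.8 and 14.3 CPM. The other Polyhomeotic genes did not pass, with Phc2 at 26.4, 24.6, 23.1 and 17.5 CPM and Phc3 at 75.9, 75.4, 60.4 and 52.6 CPM. Of the RING ligase genes, Rnf2 was at 145, 146, 138 and 162 CPM and Ring1 at 7.96, 7.18, 9.06 and 10.4 CPM. Among CBX genes, Cbx8 was at 1.85, 0.912, 4.35 and 5.56 CPM (log2 fold change 1.84, SE 0.37, adjusted p = 0.027), and its adjusted p was 0.0646 to 0.209 when a library was left out. Cbx7, the main CBX gene of stem cells, was at 149, 150, 156 and 142 CPM, and Cbx2 and Cbx6 had log2 fold changes of 0.39 and -0.28 without passing. Scmh1 and Scml2, which encode further SAM domain proteins, were at log2 fold changes of -0.42 and -0.92 and did not pass.

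Of 14 variant PRC1 genes 1 fell and 0 rose, a share called of 7.14% against 10.7% over all genes. The gene that fell was Pcgf5, from 25.0 and 25.9 CPM to 6.91 and 6.97 CPM (log2 fold change -1.87, SE 0.20). Pcgf5 passed without Phc1-KO 1 (adjusted p = 0.039) but not without ESC 1 (0.0629), ESC 2 (0.0693) or Phc1-KO 2 (0.0618). Of 12 PRC2 genes, Jarid2, a cofactor that aids recruitment, rose by 0.58 on the log2 scale, and Ezh1, the alternative methyltransferase, fell by 1.19. The main methyltransferase gene Ezh2 was at 330, 334, 282 and 270 CPM, and Suz12 and Eed, its core partners, had log2 fold changes of -0.42 and 0.31 without passing. Jarid2 and Ezh1 were not called when any of the 4 libraries was left out. Hox genes are a known family of Polycomb targets, and 30 of 39 passed the filter on low counts. Polycomb targets as a whole were not listed, so the Hox genes do not stand for all of them. In Phc1-KO 18 of the 30 Hox genes rose and 0 fell, 60% higher against 4.91% over all genes. Besides Hoxa10, the genes that rose included Hoxd13 (1.30, 0.912, 16.8 and 16.6 CPM) and Hoxa5 (0.555, 0.852, 7.49 and 5.32 CPM). The 39 Hox genes summed to only 20.2 and 18.7 CPM in ESC, and with the 4 libraries alone 26 passed the filter. Genes so low in ESC had little room to fall, so the absence of falls is not a result. Between 0 and 4 Hox genes were called when a library was left out, and 2 with the ESC libraries counted as 1. For Hoxa10 the adjusted p was 0.0545 without ESC 2 and 0.0512 without Phc1-KO 2.

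Pluripotency genes split. Of 24 core and naive genes 4 fell and 2 rose. Tfcp2l1, listed as Tcfcp2l1, a transcription factor downstream of LIF, was read at 554, 557, 192 and 137 CPM, Nanog at 218, 223, 136 and 112 CPM, and Dppa3 and Tcl1 fell by 2.63 and 1.13 on the log2 scale. Nr0b1 and Fgf4 rose by 0.77 and 0.64. Pou5f1 (Oct4), at 358, 344, 453 and 627 CPM, Sox2, at 352, 347, 254 and 312 CPM, and Esrrb, at 262, 262, 179 and 123 CPM, did not pass. Of 14 formative and primed genes tested 5 rose and 2 fell. The DNA methyltransferase gene Dnmt3a was at 147, 145, 417 and 422 CPM (log2 fold change 1.53, SE 0.13, adjusted p = 0.00244), Tcf15 rose by 1.63, Sall2 by 1.27, Lef1 by 1.23 and Zic2 by 0.58. Fgf8 and Cldn6 fell by 2.41 and 1.59. Fgf5, at 16.6, 17.6, 13.4 and 16.8 CPM, and Otx2, at 37.0, 37.4, 33.0 and 57.1 CPM, did not pass. Without ESC 1 or ESC 2, 0 of the core and naive genes were called, and of the formative list 1 and 0. The adjusted p of Dnmt3a was 0.0503 without ESC 2.

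In the Nodal and TGF-beta pathway, which keeps primed cells and patterns mesendoderm, 3 of 19 genes rose and 3 fell. The rises were in the ligand gene Inhba, at 10.8, 10.04, 79.9 and 40.5 CPM, the antagonist gene Lefty1, at 134, 129, 336 and 471 CPM, and Gdf3. The falls were in the activin antagonist gene Fst, by 1.75 on the log2 scale, and in the receptor genes Acvr1b and Acvr2b, by 1.10 and 0.95. Nodal itself was at 52.1, 47.9, 55.4 and 53.7 CPM. In the retinoic acid pathway Crabp1, which encodes a binding protein for retinoic acid in the cytoplasm, was at 11.1, 10.1, 72.7 and 75.4 CPM, the receptor gene Rarg rose by 1.18, and Cyp26a1, which encodes the degrading enzyme and is itself a target, was at 11.8, 12.3, 0.943 and 0.774 CPM. Crabp1 passed in each fit that left out a library, and Cyp26a1 and Rarg in none of them. In the FGF and ERK list Spry2, Myc and Fgf15 rose by 0.79, 1.04 and 1.06 and 0 of 18 fell, and of 15 BMP genes 1 fell, Bmp2, by 2.51. The shares called were 16.7% of the FGF and ERK list and 6.67% of the BMP list, against 10.7% over all genes. With the ESC libraries counted as 1, 0 of the Nodal, FGF and BMP genes were called.

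Lineage lists moved in different directions. Of 17 genes of primitive streak and mesendoderm 9 fell and 0 rose, with T (brachyury) at 58.1, 56.7, 7.17 and 6.05 CPM and Mixl1 at 9.07, 7.97, 0.786 and 0.532 CPM. Of 14 trophoblast genes 8 fell and 0 rose, among them Cdx2, by 2.55 on the log2 scale, and 3 keratin genes that the epithelial list shares. Of 14 endoderm genes tested 4 rose, which were Pdgfra, Cubn, Col4a1 and Col4a2, and Fst fell. The endoderm transcription factor genes Gata4, at 4.32, 4.01, 6.28 and 4.11 CPM, and Gata6, at 3.21, 3.47, 4.19 and 3.29 CPM, did not pass. Of 14 neural progenitor genes tested Pax6 rose, a share called of 7.14% against 10.7% over all genes. With the 4 libraries of ESC and Phc1-KO alone, 8 of the 14 passed the filter, and the others were tested through their level in NPC. Olig2, an abundant regulator in neural stem cell lines, was at most 0.194 CPM in each ESC and Phc1-KO library, and at 254 and 58.6 CPM in NPC. Without Phc1-KO 2, 0 of the streak genes and 2 of the trophoblast genes were called.

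The genes around Phc1 were examined because they share its chromosome segment with pluripotency genes. Of 25 genes in the tables within 500 kb, 12 were tested, 5 fell and 2 rose. Besides Phc1, the genes that fell were Dppa3 (log2 fold change -2.63), Nanog (-0.83), Slc2a3 (-1.58) and Foxj2 (-1.11). Gdf3, a TGF-beta family ligand gene between Phc1 and Dppa3, was read at 64.1, 68.5, 138 and 155 CPM, and Mfap5, a microfibril gene, rose by 1.38. The genes on either side of Phc1 did not pass, with M6pr at 191, 189, 231 and 285 CPM and 1700063H04Rik at a log2 fold change of 0.18. All 4 genes tested from Dppa3 to Foxj2 fell, while both genes that rose lie between Phc1 and Dppa3. Of these 7 calls 1, 1, 5 and 1 passed without ESC 1, ESC 2, Phc1-KO 1 and Phc1-KO 2, and 1 with the ESC libraries counted as 1.

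The imprinted Dlk1 to Dio3 region of chromosome 12 makes protein-coding mRNA from the paternal copy and long noncoding RNA, small nucleolar RNA (snoRNA) and microRNA from the maternal copy. Of 38 genes tested between Dlk1 and Dio3, 32 fell and 0 rose, beside 5.75% lower over all genes. The median log2 fold change was -2.76. The long noncoding RNA Rian (mm9, 110842155 to 110899919, plus strand) was read at 573.5, 587.9, 88.1 and 86.0 CPM (log2 fold change -2.74, SE 0.15, adjusted p = 0.00111). Mirg was at 45.6, 45.0, 4.03 and 3.39 CPM (log2 fold change -3.61, SE 0.19, adjusted p = 0.00111). Meg3, the first of these RNAs, was at 208, 196, 70.7 and 25.6 CPM, and its adjusted p was 0.122 without ESC 1 and 0.113 without ESC 2. Rtl1, a retrotransposon-like gene expressed from the paternal copy, was at 54.2, 55.8, 6.55 and 4.26 CPM. The flanking genes did not pass, with Dlk1 at 2.10, 2.49, 2.30 and 1.11 CPM and Dio3 at 1.05, 1.09, 0.838 and 1.31 CPM. Of 15 snoRNA genes 14 fell and of 13 named microRNA genes 10 fell, all at no more than 4.50 CPM. At no more than 0.576 CPM in Phc1-KO, they passed the filter on low counts through their level in ESC or NPC. A fall was therefore favoured in advance for those that passed through ESC. These small genes lie within or beside the long RNAs, so their reads can be those of host or precursor RNA, and the strand setting of the counts is not given, so Rtl1 cannot be told apart from transcripts on the other strand. They are therefore not independent results, and mature microRNA was not measured.

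Each of the 13 microRNA genes matched RefSeq mature sequences, 25 in all with 25 different seeds. Sequences of 5 microRNAs from genes that fell are given 5′ to 3′ with the seed, bases 2 to 8, in capitals, to show that these precursors, although they lie together, make products of unlike seeds.
mmu-miR-1193-5p: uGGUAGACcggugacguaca
mmu-miR-329-3p: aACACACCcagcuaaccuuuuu
mmu-miR-154-5p: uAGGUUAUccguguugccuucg
mmu-miR-134-5p: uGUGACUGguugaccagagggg
mmu-miR-382-5p: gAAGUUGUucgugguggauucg
Mir1193 and Mir329 rested on 31 and 24 reads over the ESC libraries and 1 each over the Phc1-KO libraries, which gives ratios of 37.8 (95% counting interval 6.29 to 1539) and 29.2 (4.77 to 1202). Mir134 was read at 0.740, 0.791, 0.105 and 0.0968 CPM.

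**Figure D5:**
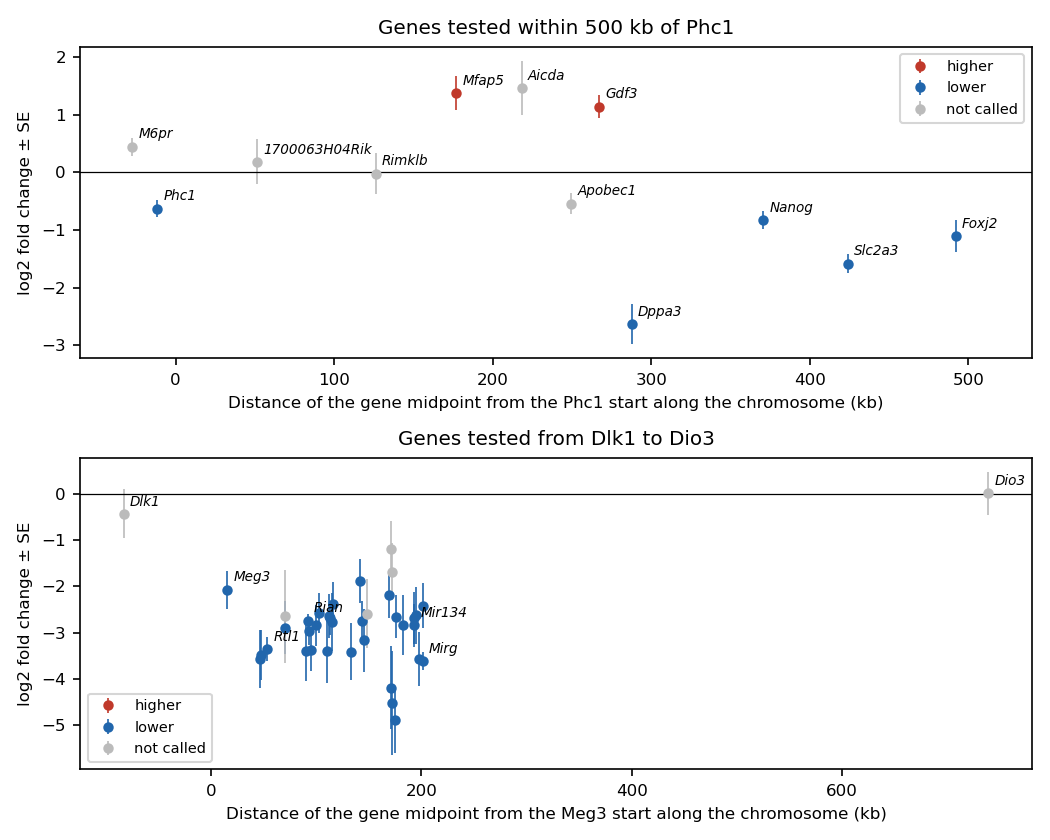
Log2 fold change with SE of each gene tested within 500 kb of Phc1 (top) and from Dlk1 to Dio3 (bottom), over the distance in kb from the start of Phc1 or Meg3; red is higher, blue lower and grey not called. The genes from Dppa3 to Foxj2 lie below 0 and Mfap5 and Gdf3 above it, and the points between Meg3 and Mirg all lie below 0 and Dio3 lies at 0.01.

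Over the whole list of 27 imprinted genes 9 fell and 3 rose, and the 9 include Meg3, Rian and Mirg of the Dlk1 to Dio3 region. H19 and Igf2, which share an imprinting control region, fell by 1.62 and 1.03 on the log2 scale, Peg3 and Zim1 by 0.92 and 1.59, and Sgce by 1.03. Mest was at 48.9, 48.9, 169 and 108 CPM, Ndn rose by 1.07 and Impact by 0.77. Igf2r, at 386, 387, 358 and 328 CPM, and Snrpn, at 155, 155, 154 and 162 CPM, did not pass. When ESC 1 or ESC 2 was left out, or the ESC libraries were counted as 1, 2 of the list fell, and these were Rian and Mirg.

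Of 4 genes on the Y chromosome, Uty, which encodes a histone demethylase homologue, was read at 46.1, 46.8, 11.1 and 10.4 CPM (log2 fold change -2.12, SE 0.16, adjusted p = 0.00189) and passed in each fit that left out a library. Ddx3y, at 38.4, 41.7, 29.4 and 29.9 CPM, Eif2s3y, at 76.8, 73.6, 49.2 and 63.2 CPM, and Kdm5d, at 3.27, 2.07, 2.09 and 2.81 CPM, did not pass. In the germline list, Tex19.1, Hormad1 and Taf7l rose by 0.97, 1.26 and 1.71 on the log2 scale and 0 of 16 fell. Zscan4d, Zscan4f and Gm5662, genes of the 2-cell embryo that a small share of stem cells expresses, rose from at most 0.678 CPM in ESC to between 1.06 and 4.08 CPM, and as close copies they are uncertain. None of these 6 genes passed when ESC 1 or ESC 2 was left out. In cholesterol synthesis 5 of 21 genes fell and 0 rose, including Srebf2, which encodes the regulator of the pathway, at 187, 178, 128 and 104 CPM. In the ATF4 and unfolded protein list Asns and Atf3 fell by 0.84 and 1.25 and Trib3 rose by 0.65, and of this list 1 member was called without Phc1-KO 1 and 0 without any other of the 4 libraries or with the ESC libraries counted as 1. Of the cholesterol list 3 members were called without Phc1-KO 1 and 0 without any other of the 4 libraries.

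In absolute level, the largest rises among named genes were in AY036118, Tnc, Fbln2 and Mat2a. AY036118, which overlaps ribosomal RNA sequence and is uncertain for that reason, was at 4162, 4082, 7447 and 12763 CPM. Tnc, which encodes the matrix protein tenascin C, was at 219.7, 215.0, 1783 and 1242 CPM, and Fbln2, which encodes fibulin 2, at 329.5, 322.9, 1162 and 1071 CPM. Mat2a, which encodes the enzyme that makes S-adenosylmethionine, was at 328.3, 328.3, 893.8 and 1039 CPM. L1td1, an RNA-binding protein gene of pluripotent cells, rose by 1.10 on the log2 scale, and Cnbp, Mkrn1 and Phf17 by 0.84, 0.77 and 0.85. The largest drops included Slc2a3, Dst, Aldoa and Rian. The cytoskeletal linker gene Dst was at 1811, 1773, 1107 and 783 CPM. Fem1b and the fatty acid desaturase gene Scd2 fell by 0.70 and 0.81. Of the 10 rises 1 passed without ESC 1 or without ESC 2 and 3 without Phc1-KO 2, and of the 10 drops 3, 3 and 2.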

How the data were processed

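The series holds 6 mouse RNA-seq libraries, and the 2 of ESC were compared with the 2 of Phc1-KO. Per the labels' protocols, Ribo-Zero Gold removed ribosomal RNA before TruSeq library preparation and sequencing of 50 bases from 1 end (HiSeq2000). The authors deposited raw counts for each Ensembl gene, obtained with STAR and HTSeq on mm9, per the submitters' processing notes and the study design. Tool versions and the use of strand in counting were not given in the sources used here. After 37620 gene rows, every file ends with 5 tallies that name no gene; these were left out and made up 68.5% to 73.8% of all reads tallied. GENCODE M1 named 37205 of the genes.

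Counts were tested with edgeR 4.0.16 (quasi-likelihood test, a coefficient for each group, R 4.3.3) on all 6 libraries, with 3 residual degrees of freedom. Genes passed filterByExpr (minimum count 10, minimum total 15), libraries were scaled by TMM, and Benjamini-Hochberg adjustment ran over 17489 genes, with a threshold of 0.05. Of these genes 5126 had an unadjusted p under 0.05. CPM were computed from the counts with TMM-adjusted library sizes. Ratios with 1 to 3 counts in a group carry 95% counting intervals, and a group with 0 counts was given a floor of 3 counts over the group; both cover counting error only, as the reads have no molecular identifiers.

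The 33 gene lists hold 582 genes; the tables have 576 (8 matched by an older symbol) and 543 passed the filter. The members and lists were chosen with earlier results of these data known. Named genes were Phc1 and the markers, the 15 largest changes in each direction with a mean of at least 4 CPM in the higher group and no overlap of the groups, the 10 largest CPM differences in each direction, up to 5 called members per list, all canonical PRC1 genes, and genes tested within 500 kb of Phc1. Numbered gene models were left out, and other genes were named after their values were seen. Some genes that the rule names are not reported here; counts and medians include them. Alternatives were DESeq2 1.42.0, limma-voom (limma 3.58.1), other scalings and filters, a fit of 4 libraries, a 2-fold test, a replicate block, each library left out and the ESC libraries counted as 1. The fit was tested on simulated data, and figures were drawn with matplotlib 3.10.9.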

Additional observations from a re-analysis of the deposited data

Results flagged for a closer look

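Reads that no gene received were outside the comparison and showed a difference between the groups. Reads aligned to several places numbered 1.70 per read counted in a gene in Phc1-KO 1 and 1.498 in Phc1-KO 2, above the 1.30 and 1.31 of ESC 1 and ESC 2. Reads outside genes numbered 1.08 per read counted in a gene in Phc1-KO 1, above the 0.839 and 0.851 of the ESC libraries, whereas Phc1-KO 2 was at 0.661. The deposited tallies do not say which repeats or regions these reads came from.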

How the results depend on the processing

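Beside 858 higher and 1006 lower genes, DESeq2 called 1375 higher and 1165 lower, a fit of the 4 libraries alone 1791 higher and 2108 lower, and a test against a 2-fold change 83 and 95. Leaving out each of the 6 libraries gave 32 to 1757 higher and 57 to 1958 lower genes, lowest for ESC 2 and Phc1-KO 2 and highest for NPC 1. Counting the ESC libraries as 1 gave 62 higher and 83 lower; a lone library was then assumed to vary like the other groups. These fits differ in the samples they hold, and any further cause was not tested. The replicate block gave 636 higher and 791 lower genes, although same-numbered libraries share only a number (correlation of deviations -0.021 to 0.020). The log2 fold change of Phc1 was -0.63 without the filter (adjusted p = 0.0528) and with the ESC libraries counted as 1, neither past the threshold, and between -0.78 and -0.49 when a library was left out. The chromosome 6 median log2 fold change minus that of all genes tested was 0.11, and 0.0909 and 0.0833 with Phc1-KO 1 or 2 taken alone. Of 179 named genes other than Phc1, 163 were called and 0 reversed; 13 lost the call under the block and 102 with the ESC libraries counted as 1. For the genes called, whose groups did not overlap, a reversal was unlikely when a library was left out. A promoter CpG comparison is void, since 63.8% of higher and 64.3% of lower genes had a promoter sequence, under the 80% needed. The motif shares over all genes rest on the same promoters, which cover 63.1% of genes tested. They describe only genes with a sequence.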

Other observations

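Neighbouring genes changed together in 14 runs of at least 4 adjacent genes tested, 9 lower and 5 higher, a description made after the values were seen and given no test. Of the 9 lower runs 3 lie in the Dlk1 to Dio3 region. On chromosome 11 the chemokine genes Ccl9, Ccl6, Ccl3 and Ccl4 fell by 2.89 to 4.79 on the log2 scale with the model Gm11428, and on chromosome 4 the complement genes C1qa, C1qb and C1qc fell beside the ephrin receptor gene Ephb2. These chemokine and complement genes are expressed in macrophages, whose listed markers summed to 190, 188, 57.2 and 40.7 CPM, and the part of macrophage RNA was not tested. On chromosome 3 the late cornified envelope genes Lce1g, Lce1h and Lce3a rose with Crct1, which was read at 1.48, 1.34, 11.5 and 10.5 CPM. Lce1g had 0 reads in ESC and 108 in Phc1-KO, at least 29.6-fold higher. On chromosome 14 Nynrin, Cbln3, Khnyn and Sdr39u1 fell, with Khnyn at 81.0, 80.7, 22.6 and 21.1 CPM. On chromosome 2 Itih2, Itih5, Gm13261 and Sfmbt2 fell, with Sfmbt2, a Polycomb-related gene, at 181, 179, 80.6 and 60.8 CPM. On chromosome 3 Lrrc34, Lrriq4, Lrrc31 and Gm15462 fell. Runs of numbered gene models rose on chromosomes 4 and 13, the latter with the zinc finger gene Zfp640 (0.740, 0.791, 3.04 and 3.53 CPM), and as close copies they are uncertain.

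Autosome medians of the log2 fold change lay between -0.07 on chromosome 12 and 0.11 on chromosome 6. Of the 634 genes tested on chromosome 12, 64 fell, 10.1% against 5.75% of all genes, and this count includes the 32 of the Dlk1 to Dio3 region.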
